A study of Macaca mulatta with 2 samples.

Results

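The cAMP and protein kinase A (PKA) machinery was taken as 41 named genes: 9 adenylyl cyclases, 11 phosphodiesterases, 7 PKA subunits, 4 A-kinase anchoring proteins, 2 cAMP-activated exchange factors, 6 CREB factors and coactivators, the receptor kinase GRK6 and the adaptor APPL1. The genes are taken by name, with no threshold on a measured value. A probe of that name was found for 40 of the 41 genes, 74 of the array's 41000 probes, and APPL1 matched none. After dim probes were left out, 52 of the 74 probes (70.3%, against 62.8% of all probes), for 33 genes, were measured, among 25768 measured probes in all.

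The samples were primary cultures of rhesus macaque Sertoli cells, which line the seminiferous tubule and support the germ cells. The pubertal donors were 18 to 22 months old and had been put through puberty with gonadotropin-releasing hormone (GnRH), infused at 0.15 µg/min for pulses of 2 min at intervals of 3 h over 4 to 5 weeks. The infant donors were younger than 3 months. Cultures of both ages had been kept for 24 h in follicle-stimulating hormone (FSH, 5 ng/ml) and testosterone (100 nM), so every sample had received FSH, and no culture without hormones is analysed here. On each of 2 arrays, 1 pubertal culture was set against 1 infant culture of other animals. The pubertal RNA carried Cy5 on array 1 and Cy3 on array 2, so the dye changed together with the animals and the 2 cannot be told apart in any difference between the arrays. GnRH treatment and age also differ together between the groups.

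FSH acts on Sertoli cells through a receptor coupled to a stimulatory G protein, which switches on adenylyl cyclases that make cAMP. The cAMP binds the regulatory subunits of PKA and frees the catalytic subunits, which phosphorylate proteins near the anchoring proteins that hold them and, in the nucleus, the transcription factor CREB. Phosphodiesterases break cAMP down, and the exchange factors RAPGEF3 and RAPGEF4 (EPAC) carry a branch of the signal that does not need PKA.

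The probes were 60 bases long and of human sequence, from a whole-genome design placed on the human build hg17, so macaque RNA was bound by human probes. Mismatches were not looked for, and a level is therefore compared only within a probe. Levels are log2 normalized intensities, and ratios are log2 of pubertal over infant. Between 60.9% and 74.8% of spots were well above background, with the higher share in Cy5 on both arrays. No probe of the 41 genes was saturated. Of their 74 probes, 12 (16.2%) were well above background in none of the 4 channels, against 24.8% of all probes.

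All 12 listed Sertoli markers were measured, among them SOX9, WT1, GATA4 and AMH, with summed linear levels of 117902 and 148241 in the pubertal samples and 137904 and 94813 in the infant samples. Markers of other testis cells were measured too. The 6 measured Leydig markers, out of 7, summed to 132572 and 156566 in the pubertal samples and 126284 and 81615 in the infant samples, while the Leydig receptor gene LHCGR had no measured probe. Stromal and germ cell markers differed between the ages. The summed linear level of 10 stromal markers was 29503 and 41648 in the pubertal samples, against 74047 and 62542 in the infant samples, and 9 of the 10 were lower on both arrays. The sum of 10 germ cell markers was 4890 and 5015 in the pubertal samples and 2666 and 4405 in the infant samples, with 8 of the 10 higher on both arrays. In such bulk RNA, fewer cells of a type and less RNA per cell cannot be told apart. The part of these cells in the values of the cAMP genes was not tested.

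No gene of the machinery passed limma's test. Of its 52 measured probes, 0 had a Benjamini-Hochberg adjusted p below 0.05, and neither did any of the 25768 probes (0.0%). Each of the 52 had an adjusted p of 0.99997 in limma, and the lowest over all probes was 0.106. Without adjustment, limma gave p below 0.05 for 1 of the 52 (1.92%), a PDE4D probe, against 1043 of all probes (4.05%). The differences below are therefore the values of 2 array pairs, none of which passed a test against the spread between pairs. Each SE given below is limma's moderated SE, which draws mostly on the spread over all measured probes. It was at least 0.24 for every probe, however close the 2 arrays were.

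The genes did not share a direction. With the brightest measured probe standing for a gene, 9 of the 33 genes (27.3%) were higher in the pubertal sample on both arrays, against 23.5% of all 19611 genes. Lower on both arrays were 4 (12.1%), against 21.9%, and 20 (60.6%) had opposite signs, against 54.6%. The median ratio of the 33 genes was 0.05 on array 1 and 0.07 on array 2, beside 0.05 and -0.03 for all genes. Across the 33 genes, which share the 4 RNA samples and are not independent, the ratios of the arrays had a Pearson r of -0.26 (Spearman -0.20), and across all genes an r of -0.07 (Spearman -0.10). A difference of at least 1.5-fold in the same direction on both arrays was found for 1 gene, PDE4D, higher in pubertal cells (3.03%, against 1.59% of all genes), and 0 were that much lower, against 1.23%. In 7 genes (21.2%, against 15.9%) both pubertal levels lay above both infant levels, and in 3 (9.09%, against 14.2%) both lay below; ADCY1 and RAPGEF4 among them were kept through the group where they are the higher. Over probes well above background in all 4 channels, both arrays put 8 genes higher and 3 lower. The share of all genes under that stricter filter was not counted, so these counts have no background beside them. By single probes, the counts were 11 of 52 above (21.2%, against 15.6%) and 5 below (9.62%, against 14.1%).

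Fuller values follow for 14 genes. In 7 of the 33 genes (21.2%, against 21.3% of all genes) the sign was shared and the mean ratio at least 0.3 in size, and in 7 (21.2%, against 12.7%) the signs were opposite and the arrays at least 1 apart.

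**Figure D1:**
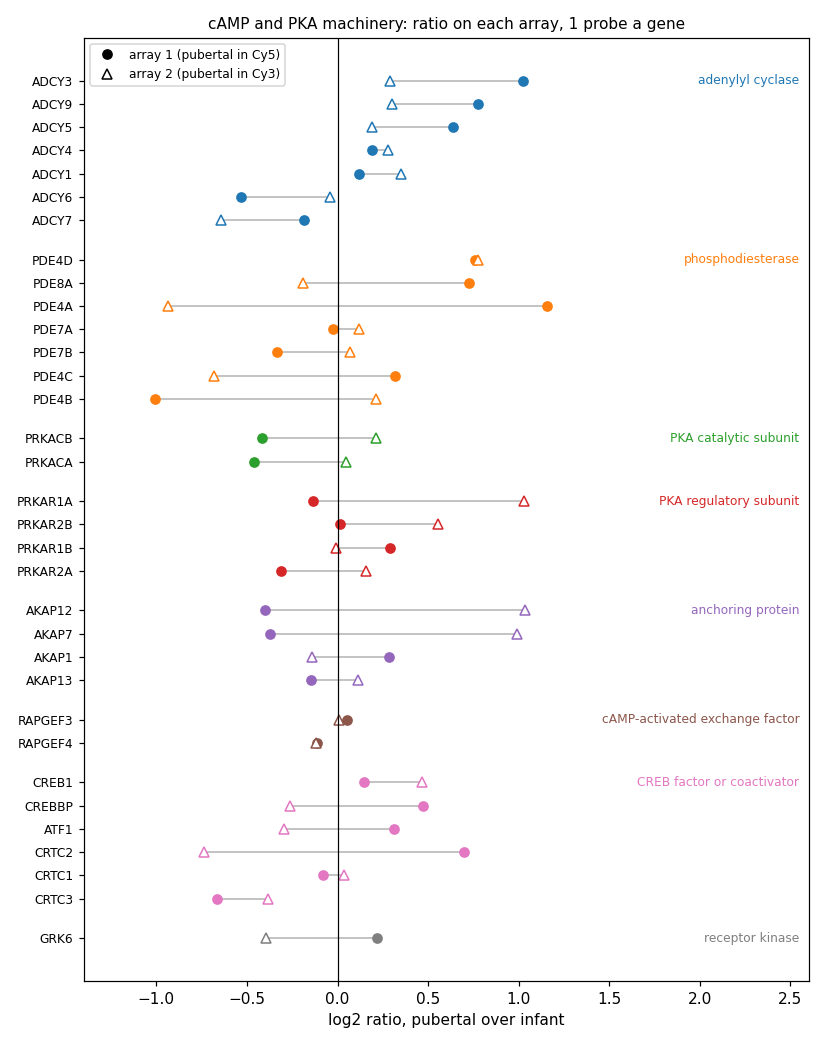
Log2 ratio of pubertal over infant (x axis) for the 33 measured genes, 1 probe each, grouped by role (rows). Filled circles are array 1 and open triangles array 2, and a grey line joins the 2 arrays of a gene. After loess normalization, both marks lie on the same side of 0 for the 7 adenylyl cyclases, with ADCY1 kept only through the pubertal samples. For 20 of the 33 genes (60.6%), none of them a cyclase, they lie on opposite sides, against 54.6% of all genes. With median centring, which is not drawn here, 22 of the 33 (66.7%) had opposite signs, against 79.4% of all genes.

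Of the 7 measured adenylyl cyclases, 5 were higher in pubertal cells on both arrays (ADCY1, ADCY3, ADCY4, ADCY5, ADCY9) and 2 lower (ADCY6, ADCY7), where 23.5% and 21.9% of all genes were. ADCY1 was measured only through the pubertal samples, where it is the higher, so its sign carries no weight. Their median ratios were 0.19 and 0.28 on arrays 1 and 2. These shared signs are those after loess normalization. Centring each array on its median left the measured probes at medians of 0.57 and -0.37, and 79.4% of all genes with opposite signs. With it, 2 of the 7 cyclases (28.6%, against 10.8% of all genes) were higher on both arrays (ADCY4 and ADCY5), and 5 (71.4%) had opposite signs. Where the arrays are set apart in this way, the loss of a shared sign cannot show where that sign came from. No test was made of the cyclases as a group.

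ADCY3, a cyclase best known from olfactory neurons, was read by a probe at chr2:24953924-24953983 on the minus strand. Its level was 13.39 and 12.83 in the pubertal samples of arrays 1 and 2, against 12.36 and 12.54 in the infant samples. Both pubertal levels lay above both infant levels, by far more on array 1 than on array 2. The ratios were 1.02 and 0.29, a mean of 0.66 ± 0.29 (SE, n = 2 array pairs), or 1.58-fold.

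ADCY9, a widely expressed cyclase that responds poorly to forskolin, had pubertal levels of 10.11 and 10.19 and infant levels of 9.33 and 9.89 at chr16:3952768-3952827. The groups did not overlap, and the mean ratio was 0.54 ± 0.26 (SE, n = 2), from 0.78 and 0.30. A further ADCY9 probe gave 0.11 and -0.40, with overlapping groups, so the probes of this gene differ in direction.

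ADCY5, a cyclase held back by inhibitory G proteins and by calcium, had 7.64 and 7.14 in pubertal cells and 7.00 and 6.95 in infant cells (chr3:124491332-124491391). Again the pubertal levels were both above the infant ones, with ratios of 0.64 and 0.19 and a mean of 0.41 ± 0.26 (SE, n = 2). ADCY7, a cyclase prominent in blood cells, ran the other way. Its levels were 7.79 and 7.55 in the pubertal samples, against 7.98 and 8.19 in the infant samples (chr16:48907161-48907220), with no overlap and a mean ratio of -0.41 ± 0.26 (SE, n = 2).

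The remaining cyclases lay closer to 0. ADCY4 had ratios of 0.19 and 0.28, and ADCY6, which is close to ADCY5 in sequence and regulation, had -0.53 and -0.04 with overlapping levels. ADCY1, a calmodulin-stimulated cyclase, was above background in both pubertal samples and in neither infant sample. Set against the background floor, its pubertal mean was 1.17-fold the infant one, which is no firm bound. Its mean ratio was 0.23 ± 0.25 (SE, n = 2), and with median centring its ratios were -0.33 and 0.54. The 1.17-fold value sets the pubertal mean against the higher, array by array, of the probe's own infant level and the lowest signal called well above background. ADCY2 and ADCY8, both known mainly from brain, had no measured probe.

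Among the 7 measured phosphodiesterases, PDE4D had a shared sign. After loess normalization the arrays disagreed in sign for the other 6 (85.7%, against 54.6% of all genes). With median centring, 5 of the 7 (71.4%, against 79.4% of all genes) had opposite signs. PDE4B was then lower on both arrays, at -0.45 and -0.25. PDE4D encodes a cAMP-specific phosphodiesterase that FSH is known to raise in rat Sertoli cells, where it forms a negative feedback on the signal. Its brightest probe read 8.09 and 7.64 in the pubertal samples and 7.32 and 6.87 in the infant samples. The groups did not overlap, and the arrays gave nearly the same ratio, 0.76 and 0.77, a mean of 0.77 ± 0.24 (limma's moderated SE, n = 2), or 1.70-fold. That SE comes mostly from the spread over all probes, not from these 2 ratios. Its unadjusted limma p was 0.0221. In the authors' deposited table, which lists only part of the array, this probe has 1.13 and 1.54.

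The 3 measured PDE4D probes lie on the minus strand of hg17 chromosome 5 and did not read alike, so their sequences, from the array's scanner files, are shown in genome order along the gene's own direction. A_23_P158406 lies furthest upstream (chr5:58488846-58488905), followed by A_23_P124456 (chr5:58305899-58305958) and the brightest, A_24_P944519 (chr5:58303056-58303115). The last pair is shown by its first 30 bases.
A_23_P158406: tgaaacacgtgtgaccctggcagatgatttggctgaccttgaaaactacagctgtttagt
A_23_P124456: agtgtgactcatcaggcagcccaaaagttt
A_24_P944519: ttttttctcaccaaatgaccttacctgtaa

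The 2 downstream probes both read higher in pubertal cells on both arrays: A_23_P124456 gave 0.24 and 0.40, a mean of 0.32 ± 0.24 (SE, n = 2). It was not well above background in the infant sample of array 1, and was kept through the pubertal samples, where it is the higher, so it adds no weight to the brightest probe. The probe furthest upstream gave -0.20 and 0.04, with overlapping groups, and was not well above background in the pubertal sample of array 2. Whether the probes read different transcripts of the gene was not tested.

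PDE4A, another member of that cAMP-specific family, differed most between the arrays among the 33 genes. Its levels were 9.87 and 9.29 in the pubertal samples of arrays 1 and 2, against 8.71 and 10.23 in the infant samples (chr19:10441226-10441285). The pubertal sample was the higher on array 1 and the lower on array 2, with ratios of 1.16 and -0.93 and a mean of 0.11 ± 0.51 (SE, n = 2). PDE4B, the family member prominent in immune cells, had 7.90 and 8.89 in pubertal and 8.91 and 8.67 in infant samples (chr1:66551810-66551869). Its ratios of -1.01 and 0.21 averaged -0.40 ± 0.36 (SE, n = 2), and a further PDE4B probe gave -0.55 and 0.07.

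PDE4C, also of that family, was printed on 10 spots of each array. Its levels were 13.44 and 12.41 in the pubertal samples and 13.12 and 13.10 in the infant samples (chr19:18181923-18181982). The groups overlapped, with ratios of 0.32 on array 1 and -0.68 on array 2 and a mean of -0.18 ± 0.32 (SE, n = 2). The spread between the 10 spots was 0.12 and 0.10 (SD) on arrays 1 and 2 beside a gap of 1.00 between the arrays; the spots of an array share its RNA, dyes and normalization, and with median centring the gap was 2.93. A further pair of PDE4C probes gave mean ratios of -0.01 and -0.05.

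The high-affinity phosphodiesterases also disagreed in sign. PDE8A had ratios of 0.72 and -0.19, PDE7A -0.02 and 0.12, and PDE7B -0.34 and 0.07. PDE3A and PDE3B, which cGMP inhibits, as well as PDE8B and PDE10A had no measured probe.

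**Figure D2:**
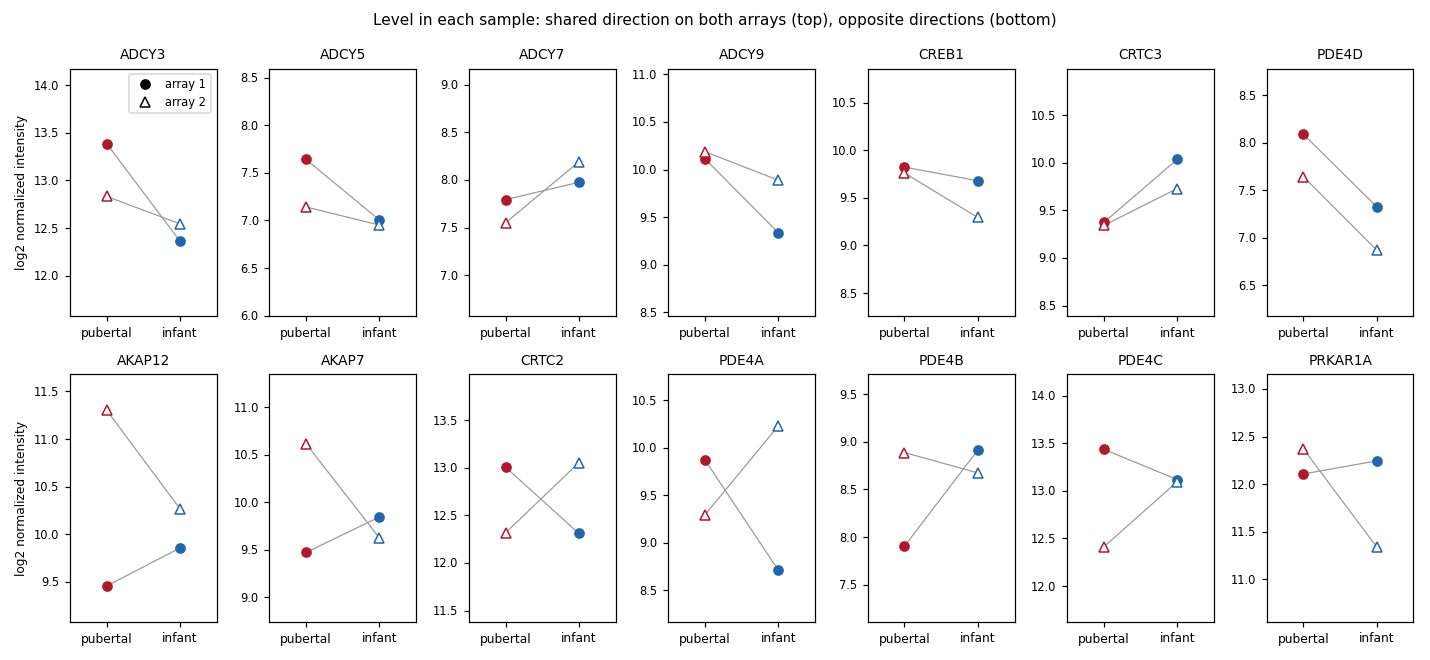
Log2 normalized intensity (y axis, an equal span in every panel) of the pubertal and infant samples for 14 genes. Circles are array 1, triangles array 2, and lines join the samples of an array. The upper panels hold 7 genes with a shared direction and a mean ratio of at least 0.3 in size, and the lower panels 7 genes whose arrays point opposite ways by 1 or more.

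The PKA catalytic subunits gave small ratios of opposite sign: PRKACA, the main catalytic subunit in most tissues, had -0.46 and 0.04, and PRKACB had -0.42 and 0.21. PRKACG, known from the testis of primates, had no measured probe. Of the regulatory subunits, PRKAR2B was higher on both arrays, with ratios of 0.01 and 0.55 and overlapping groups. PRKAR2A had -0.31 and 0.16, and PRKAR1B had 0.29 and -0.01.

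PRKAR1A, the type I regulatory subunit found in most cells, was the regulatory subunit whose arrays were furthest apart. Its brightest probe read 12.11 and 12.37 in the pubertal samples and 12.24 and 11.34 in the infant samples. The groups overlapped, since the infant sample of array 1 lay above the pubertal sample of that array. The ratios were -0.14 and 1.03, a mean of 0.45 ± 0.35 (SE, n = 2). With median centring they were 0.97 and 0.36, higher on both arrays.

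The 3 PRKAR1A probes differed in sign, and are shown for that reason, all from the plus strand of chromosome 17. A_24_P245322 spans 1029 bases of the genome (chr17:64035591-64036619), which places its 60 bases across a splice junction. A_24_P356592 (chr17:64039017-64039076) and the brightest probe, A_23_P433753 (chr17:64039216-64039275), are shown by their first 30 bases.
A_24_P245322: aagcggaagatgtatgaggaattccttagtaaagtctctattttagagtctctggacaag
A_24_P356592: gaatttgaggtctacattcttggttgttaa
A_23_P433753: aaagttcagtgtcgggaattttccccgtga

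A_24_P356592 gave 0.06 and 0.82, a mean of 0.44 ± 0.29 (SE, n = 2), close to the 0.45 of the brightest probe and with both pubertal levels above both infant levels. In the authors' deposited table A_24_P356592 has -0.04 and 1.38, so the sign is not shared there. The junction probe gave -0.70 and 0.20, a mean of -0.25 ± 0.31 (SE, n = 2). After loess normalization, all 3 had their higher ratio on array 2.

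The 4 measured anchoring proteins had opposite signs on the arrays, as 54.6% of all genes did. With median centring 2 of them, AKAP7 and AKAP12, were higher on both arrays, with gaps between the arrays of 0.0090 and -0.03. AKAP12 (gravin), a scaffold that holds PKA near receptors at the membrane, had 9.46 and 11.30 in the pubertal samples and 9.85 and 10.27 in the infant samples (chr6:151762120-151762179). The pubertal sample of array 2 was the highest of the 4 and that of array 1 the lowest, with ratios of -0.40 and 1.04 and a mean of 0.32 ± 0.39 (SE, n = 2). A further AKAP12 probe (chr6:151766928-151766987) gave -0.13 and 0.77. AKAP7, a small anchor at the plasma membrane, followed the same pattern. It had 9.47 and 10.62 in pubertal and 9.84 and 9.63 in infant samples (chr6:131646054-131646113), with ratios of -0.37 and 0.99 and a mean of 0.31 ± 0.38 (SE, n = 2). AKAP1, the anchor of the outer mitochondrial membrane, had 0.28 and -0.14. AKAP13, a further anchor of PKA, had mean ratios between -0.32 and 0.08 over its 4 measured probes, the highest by a probe not well above background in either infant sample. The exchange factors lay near 0, RAPGEF3 at 0.05 and 0.01 and RAPGEF4 at -0.11 and -0.12. RAPGEF4 was not well above background in the pubertal sample of array 2 and was kept through the infant samples, where it is the higher.

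**Figure D3:**
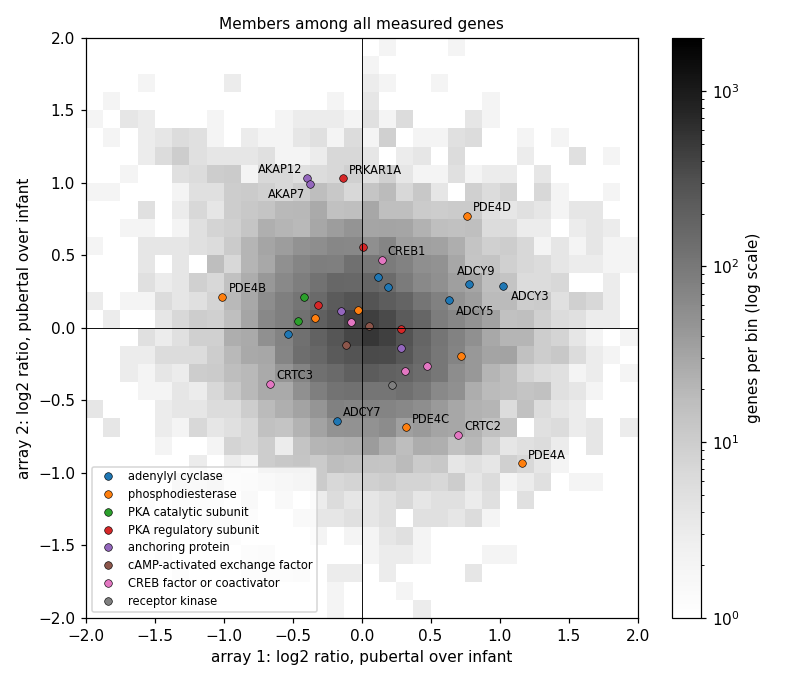
Log2 ratio of pubertal over infant on array 1 (x axis) against array 2 (y axis) for the 33 genes, coloured by role, over all measured genes as grey shading (genes per bin, log scale); both axes end at 2. Genes of shared sign lie in the upper right and the lower left. PDE4D lies in the upper right at 0.76 and 0.77, and PDE4A in the lower right at 1.16 and -0.93.

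CREB1, the transcription factor that PKA activates, was higher in pubertal cells by each of its 3 probes on both arrays after loess; with median centring its brightest probe gave 0.95 and -0.07. Its brightest probe, at chr2:208288423-208288482, had 9.82 and 9.76 in the pubertal samples, against 9.68 and 9.29 in the infant samples. No probe's groups overlapped, though the margin was small for each of the 3. The brightest probe's mean ratio was 0.31 ± 0.25 (SE, n = 2) from 0.14 and 0.47. A_24_P105721 had levels of 8.48 and 8.10 against 8.02 and 7.68, pubertal against infant, a mean ratio of 0.44 ± 0.24 (SE, n = 2). A_24_P932208 had a mean ratio of 0.22 ± 0.24 (SE, n = 2).

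The last pair of CREB1 probes do not give separate evidence, because they share 18 bases, in capitals here. Both are on the plus strand, A_24_P932208 at chr2:208257682-208257744 and A_24_P105721 at chr2:208257723-208257782. A_24_P105721 lies in the stretch that encodes the kinase-inducible domain, the part of CREB that PKA phosphorylates. A_24_P932208 has a stop codon in every reading frame, so its whole length was not taken as coding. The brightest probe, A_23_P79231, lies apart from them and is shown by its first 30 bases.
A_24_P932208: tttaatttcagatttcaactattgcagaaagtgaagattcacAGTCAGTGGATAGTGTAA
A_24_P105721: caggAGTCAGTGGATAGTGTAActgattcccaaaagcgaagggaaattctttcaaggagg
A_23_P79231: aagtacagtgttagatgtgcacaaggaaag

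The CREB coactivators of the CRTC family, which enter the nucleus when cAMP rises, did not run together. CRTC3 had 9.37 and 9.34 in the pubertal samples and 10.04 and 9.73 in the infant samples (chr15:88988851-88988910), with no overlap. Its ratios of -0.66 and -0.39 gave a mean of -0.52 ± 0.25 (SE, n = 2), the lowest of the 33 genes. CRTC2 had 13.01 and 12.32 in pubertal and 12.31 and 13.05 in infant samples (chr1:150733261-150733320). The arrays pointed opposite ways, at 0.70 and -0.74, with a mean of -0.02 ± 0.39 (SE, n = 2), and a further CRTC2 probe gave 0.20 and -0.50. CRTC1 had -0.08 and 0.04 by a probe of 78.3% G and C, a content reached by 0.241% of all probes.

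The other nuclear members had opposite signs. ATF1, a close relative of CREB, had 0.31 and -0.29. CREBBP, the acetyltransferase that binds phosphorylated CREB, had 0.47 and -0.26 by its brightest probe. A CREBBP probe on 10 spots gave -0.34 and -0.02, with SDs between spots of 0.069 and 0.097, and both its pubertal levels lay below the infant ones. GRK6, a kinase that phosphorylates activated receptors, had 0.22 and -0.40.

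Probes of the same gene often disagreed. Of the 11 genes with several measured probes, 5 (45.5%) had mean ratios of 1 sign over all their probes (AKAP12, CREB1, CRTC2, PDE4B and PDE4C), against 67.9% of the 4721 such genes on the array. For ADCY9, PDE4D and PRKAR1A the probes' means were up to 0.68, 0.85 and 0.69 apart.

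**Figure D4:**
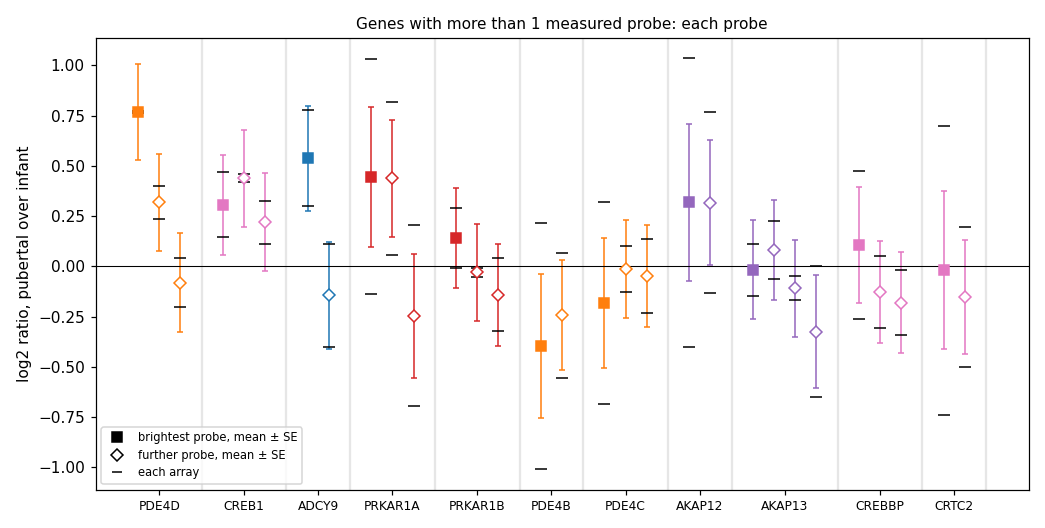
Log2 ratio of pubertal over infant (y axis) of every measured probe of the 11 genes with several probes. Squares are the brightest probe and open diamonds further probes, with the mean of 2 array pairs ± limma's moderated SE, and short dashes give the arrays. The 3 CREB1 probes all lie above 0, while those of PDE4D reach from -0.08 to 0.77.

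Among 40 other genes of the cAMP pathway, 31 were measured, and 0 passed limma's test. Of these, 4 were higher (12.9%) and 12 lower (38.7%) than in infant cells by both arrays and 15 had opposite signs, against 23.5% higher and 21.9% lower among all genes. With median centring the counts were 2 higher and 3 lower, where 10.8% of all genes were higher and 9.75% lower. The 12 lower ones include FSHR, the FSH receptor, at -0.24 and -0.17. Its levels were dim, 6.55 and 6.53 in the pubertal and 6.79 and 6.70 in the infant samples. The lowest signals called well above background were between 5.78 and 6.26. With the largest mean ratios of shared sign, RAPGEF2, an exchange factor for Rap, had 1.25 and 0.32, and AKAP4, an anchor of the sperm tail, had 0.52 and 0.46. POPDC2, a membrane protein that binds cAMP, had -1.03 and -0.46. PRKX, a kinase related to the PKA catalytic subunit, had -0.31 and -0.91, the receptor kinase GRK5 -0.58 and -0.60, and the PKA inhibitor PKIA -0.09 and -0.58.

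The sign of the mean ratio of the 7 genes of shared direction was kept under the alternatives. The size varied more for PDE4D and ADCY5 than for the other 5. Of the 8 alternatives, only the other offset, the scanner's processed signals and median centring change the ratios themselves. The rest reuse the main ratios, so they could not change a sign or a mean. The 7 genes had been picked on these same ratios. Over the 8 alternatives, the mean ratio of PDE4D lay between 0.77 and 1.34 and that of ADCY5 between 0.41 and 0.90 with the scanner's own processed signals at the upper end, and the lowest adjusted p in limma was 0.529 for PDE4D. ADCY3 ranged from 0.62 to 0.87, ADCY9 from 0.54 to 0.65, CREB1 from 0.31 to 0.44, ADCY7 from -0.62 to -0.36 and CRTC3 from -0.57 to -0.39. The ratios of the single arrays did depend on the normalization. With median centring in place of loess, PDE4D (1.13 and 0.59) and ADCY5 (0.86 and 0.08) were higher on both arrays. The other 5 had opposite signs, as did 79.4% of all genes. The gap between the arrays (array 1 minus array 2) was then -0.03 for AKAP12 and -0.20 for PDE4B, against -1.43 and -1.22 with loess, and it changed sign for AKAP7 (0.0090) and PRKAR1A (0.61). The gap was wider for PDE4A (3.38), CRTC2 (3.32) and PDE4C (2.93), which kept opposite signs. With median centring AKAP7, AKAP12 and PRKAR1A (0.97 and 0.36) were higher on both arrays, as were 10.8% of all genes. PDE4B (-0.45 and -0.25) was lower on both, as were 9.75%.

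**Figure D5:**
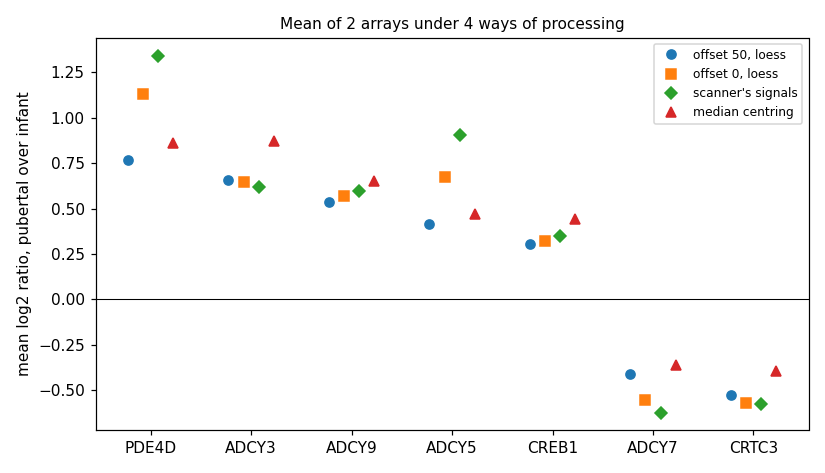
Mean log2 ratio of pubertal over infant over the 2 arrays (y axis) for the 7 genes of shared direction, under 4 ways of processing (marker shapes). The mean of every gene keeps its sign. PDE4D runs from 0.77 with an offset of 50 to 1.34 with the scanner's signals.

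The authors' deposited table, which holds 4848 probes (11.8% of the array), lists 11 of the 74 probes (14.9%). Regressed on the log2 pubertal-over-infant ratios of the scanner files, the columns of the authors' deposited table gave slopes of 1.006 and 1.003. In the authors' deposited table ADCY5 has 1.33 and 0.46, PDE4A 1.21 and -1.02, and PDE4B -1.23 and 0.23 by its brightest probe. The authors' deposited table gives AKAP12 -0.40 and 1.03, AKAP7 -0.46 and 1.06, PRKAR1A -0.29 and 1.15 by its brightest probe, and PDE7B -1.12 and 0.17. PDE4D and ADCY5 are thus the genes of the 41 that the authors' deposited table lists with 1 sign in both columns.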

How the data were processed

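The deposited scanner files give, per the file headers, unnormalized intensities (each spot's mean, and the median of its surroundings, in both channels), beside a log10 ratio of Cy5 over Cy3 and other values, namely flags for background, saturation and outliers. The submitters' processing notes name Agilent Feature Extraction 9.5.1.1, and both arrays came from 1 slide and 1 scan. The authors' deposited log2 table states neither its normalization nor why cells are empty. Here, intensities were corrected by normexp (offset 50) and normalized by loess in limma 3.58.1 under R 4.3.3, without control and outlier spots. The offset makes ratios of dim probes smaller. Array 2 was turned by its dye labels, and spots of a probe were averaged. A probe was kept if both pubertal samples, or both infant samples, were well above background; 15232 were left out. Levels are channel values after loess and Aquantile. The test was limma's (lmFit and eBayes, two-sided, Benjamini-Hochberg over 25768 probes), with 1 residual and 4.33 prior degrees of freedom. The number of arrays limits the precision.

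Full statistics are given for genes with a shared sign and a mean of at least 0.3, or arrays at least 1 apart in opposite directions; of the other pathway genes, the 6 largest of shared sign are named. The members and lists were chosen with earlier results of these data known. Further marker lists were Leydig (6 of 7 measured; 1 higher, 1 lower on both arrays), peritubular myoid (6 of 6; 2 and 2), macrophage (6 of 6; 2 and 1) and proliferation (5 of 6; 2 and 0). Of the 12 Sertoli markers, 5 were higher and 1 lower. The alternatives tried were another offset, the scanner's processed signals, median centring, no filter and a stricter one, an intensity trend, 1 probe per gene, no saturated probes, each array alone, and the authors' deposited log2 values.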

Additional observations from a re-analysis of the deposited data

How the results depend on the processing

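With 2 array pairs and 1 residual degree of freedom, limma called 0 probes, and 1 with offset 0, with median centring or with the stricter filter; none of these was a probe of the 41 genes. Unadjusted, limma gave p below 0.05 for 51 to 1726 probes over the alternatives, and for 0 to 3 of these genes' probes. Median centring, which leaves the array medians at 0.57 and -0.37, turned the gap between the arrays (array 1 minus array 2) for AKAP7 to 0.0090, against -1.36 with loess, and for PRKAR1A to 0.61, against -1.17. It left 2 other pathway genes higher and 3 lower, against 4 and 12 with loess, and 10.8% of all genes higher and 9.75% lower. It left 7 probes with the pubertal levels above and 3 with them below the infant levels, against 11 and 5 with loess. With 1 probe per gene those non-overlapping probes were 7 and 3; without the filter, 10 lay below, and 14 genes in place of 9 were higher on both arrays, since more probes were counted. With 1 array alone, where sharing a sign needs no second array, 18 to 20 genes were higher and 13 to 15 lower, 26 to 32 probes lay above and 20 to 26 below, and 9 to 14 other pathway genes were higher and 17 to 22 lower. No share over all probes or genes was counted for 1 array, for no filter, or for the non-overlap with median centring. Those counts therefore have no background beside them. No paired analysis was possible because no pairing beyond that of the arrays is given; limma's fit already runs on the 2 within-array pairs.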
